A study of Mus musculus with 2 samples.

Results

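The immediate early genes described here were 10 genes: Fos, Fosb, Jun, Junb, Jund, Egr1, Atf3, Ier2, Ier3 and Dusp1. They were chosen by name, and a probe was taken for a gene where its RefSeq accession in the array design mapped to that symbol. All 10 genes were on the array, with 13 probes, among 22909 genes that could be named by accession. A value could be given for 14669 of those genes.

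The study asked what loss of the prostaglandin E2 receptor EP4 (gene Ptger4) in the intestinal epithelium did to gene expression in the unchallenged colon. RNA of whole colon from 8 week old mice of the C57BL/6 strain was hybridised to 2 one-colour Agilent arrays, 1 per genotype. The controls carried Villin-Cre, in which the villin promoter drives Cre recombinase in intestinal epithelium. The EP4 cKO mice were Villin-Cre; EP4flox/flox, so that the same Cre was present in both groups and only the floxed Ptger4 allele set them apart by label. By the labels, 3 pools of colon tissue were merged for each array, so each value is an average over animals with no replicate. No test between genotypes was therefore possible, and the ± values are the error that the scanner software gives for a spot, which leaves out the spread between animals. Because the tissue was whole colon, fewer cells of a type and less RNA per cell cannot be told apart.

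Immediate early genes are transcribed within minutes of a stimulus, before any new protein is made, from promoters whose factors are already bound. Prostaglandin E2 acting on EP4 raises cAMP, and protein kinase A then phosphorylates CREB at cAMP response elements (CRE), which several of these genes carry. Growth factors, stress and the handling of tissue at dissection also induce them, through MAP kinases and serum response factor. Fos and Jun proteins pair through leucine zippers to form AP-1, Egr1 and Atf3 bind their own sites, and Dusp1 removes the phosphates from the MAP kinases.

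Promoter sequence was read for 8 of the 10 genes from the RefSeq promoter table of build GRCm38.p6, as the 250 bases before the annotated start. Egr1 and Ier2 had no entry. The Fosb window, chr7:19310046-19310295 on the - strand, overlaps the Fosb gene position given below, chr7:19302696-19310118. Its start in the promoter table thus differs from the start of that gene position. The 5 promoters printed here are those of Jun and Atf3, which had the lowest and the highest ratio of the 10 genes, of Junb, which lay opposite to Jun, of Dusp1, the only one with a full CRE, and of Fos, the founding AP-1 gene. They were chosen after the values were seen. Each runs 5′ to 3′ on the strand of the gene, and capitals mark matches to the motifs searched.
Fos, chr12:85473640-85473889, + strand: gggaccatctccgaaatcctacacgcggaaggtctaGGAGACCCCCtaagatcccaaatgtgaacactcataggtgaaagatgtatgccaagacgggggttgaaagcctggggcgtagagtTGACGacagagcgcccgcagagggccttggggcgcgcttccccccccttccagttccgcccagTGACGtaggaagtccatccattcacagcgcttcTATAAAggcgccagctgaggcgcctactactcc
Jun, chr4:95052223-95052472, - strand: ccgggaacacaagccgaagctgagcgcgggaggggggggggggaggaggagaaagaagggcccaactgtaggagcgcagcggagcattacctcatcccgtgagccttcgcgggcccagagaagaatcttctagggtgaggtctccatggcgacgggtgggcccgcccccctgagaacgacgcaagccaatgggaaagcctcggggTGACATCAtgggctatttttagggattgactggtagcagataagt
Junb, chr8:84978749-84978998, - strand: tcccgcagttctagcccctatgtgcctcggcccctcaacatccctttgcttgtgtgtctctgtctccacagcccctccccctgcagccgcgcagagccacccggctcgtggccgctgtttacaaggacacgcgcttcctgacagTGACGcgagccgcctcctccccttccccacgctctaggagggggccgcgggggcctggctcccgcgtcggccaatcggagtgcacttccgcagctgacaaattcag
Atf3, chr1:191183334-191183583, - strand: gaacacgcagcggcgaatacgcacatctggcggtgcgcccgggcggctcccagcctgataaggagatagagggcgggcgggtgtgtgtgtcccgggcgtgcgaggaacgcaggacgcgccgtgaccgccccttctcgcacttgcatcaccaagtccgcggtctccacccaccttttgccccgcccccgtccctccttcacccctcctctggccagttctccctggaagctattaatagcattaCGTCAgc
Dusp1, chr17:26508473-26508722, - strand: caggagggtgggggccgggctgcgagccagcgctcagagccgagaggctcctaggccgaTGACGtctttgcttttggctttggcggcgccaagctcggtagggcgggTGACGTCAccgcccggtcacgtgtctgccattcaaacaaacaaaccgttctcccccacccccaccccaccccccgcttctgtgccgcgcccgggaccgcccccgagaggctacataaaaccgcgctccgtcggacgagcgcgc

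Both strands were searched. The full CRE, TGACGTCA, was found in 1 of the 8 promoters, that of Dusp1, at 143 to 136 bases before the start, and in 1.55% of all 32851 promoters of the table. The CRE core, TGACG, which the full CRE contains, was found in 5 of the 8, namely Fos, Fosb, Junb, Atf3 and Dusp1, against 17.8% of all promoters. Fos carried it at 129 to 125 and at 66 to 62 bases before the start, and Atf3 carried it on the other strand at 7 to 3. In Jun, the letters TGACATCA, which differ from the full CRE in the middle and were added to the search after the sequence was seen, lay at 45 to 38 and occurred in 2.93% of all promoters. The TATA box TATAAA was found only in Fos among the 8, at 33 to 28 bases before the start, and in 12.4% of all promoters. The EGR site, searched as GCGTGGGCG or GCGGGGGCG, was found only in Fosb among the 8, and in 3.06% of all promoters. In Fosb this site and the CRE core lie where the window overlaps the gene position.

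The NF-kappaB motif was found in 3 of the 8, Fos, Fosb and Ier3, against 3.90% of all promoters. The AP-1 site TGAGTCA, the motif TTCNNNGAA and the CArG box of serum response factor were in none of the 8 windows, against 4.46%, 7.02% and 1.47% of all promoters, which says only that these letters were absent from 250 bases. Jund had no match to any motif searched. The 5 genes with a CRE core had log2 ratios on both sides of 0, from -0.62 for Dusp1 to 0.71 for Atf3. The 3 without it were Jun, Jund and Ier3, at -0.94, -0.43 and -0.08. The 8 windows ran from 47.6% G and C in Jund to 68.8% in Fosb, against a median of 52.4% over all promoters. The 5 with a CRE core had 58.4% or more. The shares over all promoters were not matched for G and C. A match is a description of letters and was not tested for binding.

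**Figure D1:**
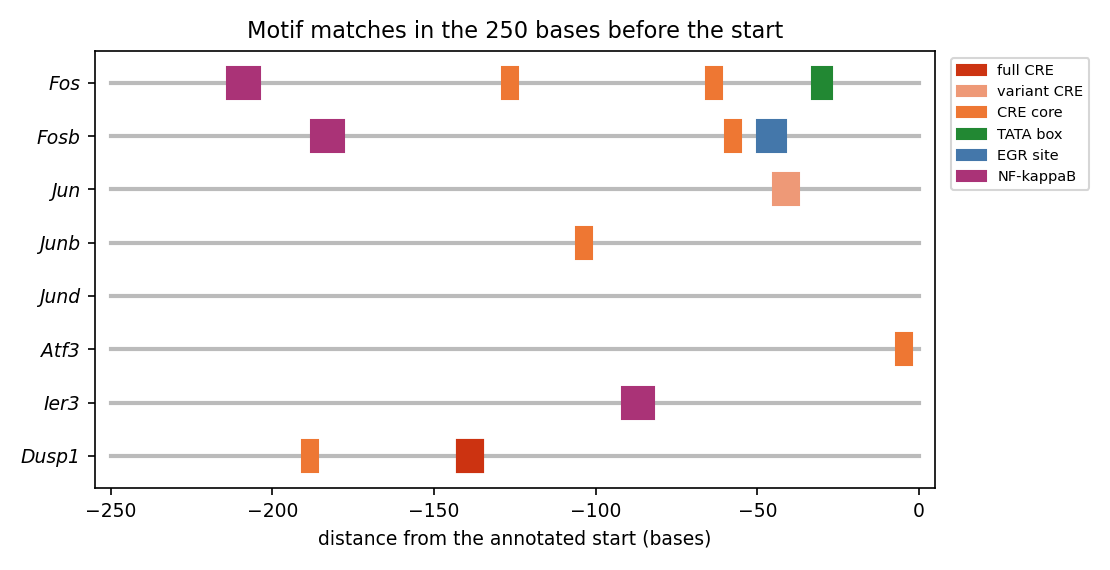
Motif matches (coloured boxes) along the 250 bases before the annotated start of 8 immediate early genes, with distance from the start in bases on the x axis. Dusp1 alone holds a full CRE, 5 genes hold a CRE core (the copies inside the full CRE are not drawn again), and Jund holds no match.

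Signals were scaled on each array so that the trimmed mean of the probes was 2500, and a log2 ratio is EP4 cKO over Villin-Cre. By the scanner software's own flag, 45.4% of gene probes were well above background in Villin-Cre and 51.6% in EP4 cKO, and a probe without the flag is called dim here. A call here means a difference of more than 2-fold. The targeted gene did not pass it. The brighter Ptger4 probe gave 6227 ± 624 in Villin-Cre and 5661 ± 566 in EP4 cKO (log2 ratio -0.14). A second, fainter Ptger4 probe gave 393 ± 49.4 and 592 ± 60.8 (log2 ratio 0.59). Whether either probe lies in the deleted exon was not tested, so every direction rests on the labels, and EP4 cKO stands for the array so labelled. Epithelial markers were present on both arrays, with 9 of 9 well above background.

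No immediate early gene was more than 2-fold higher or lower in the EP4 cKO colon by its brightest probe (0 of 10 in each direction), where 4.86% of all genes with a value passed that threshold upward and 7.87% downward. At 1.5-fold, 3 of the 10 were lower and 1 was higher, against 18.6% and 9.84% of all genes. At 3-fold there were 0 of 10, against 3.63% lower and 2.21% higher. The log2 ratio was below 0 for 8 of the 10 genes and above 0 for 2, Atf3 and Junb, but above 0 for all 10 when the arrays were scaled to their E1A control spots, which are for a spike-in RNA whose added amount is not given in the sources used here. The median was -0.41, against -0.10 over all genes, of which 57.5% were below 0. Of the 10, 7 lay below the median of all genes. The difference exceeded 2 standard errors of the spot error for 6 genes, 5 of them lower in EP4 cKO (Jun, Egr1, Dusp1, Ier2 and Jund) and 1 higher (Atf3). The share of all genes beyond that mark was not counted, so whether 6 of 10 is unusual was not tested. With scaling to E1A the median of the 10 was 0.64 and that of all genes 0.88.

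The Fos genes showed small differences, and gene positions here and in the following paragraphs are those of GRCm38.p6. Fos (chr12:85473890-85477274), which pairs with Jun proteins, gave 49101 ± 4910 in Villin-Cre and 41329 ± 4133 in EP4 cKO, and the error ranges overlapped. Its log2 ratio was -0.25 ± 0.20, and 38.4% of all genes had a lower one. Fosb (chr7:19302696-19310118), a second partner of Jun proteins, had 2 probes for the same transcript. Its brighter probe gave 6050 ± 606 in Villin-Cre and 4618 ± 462 in EP4 cKO, a log2 ratio of -0.39 ± 0.20. Its fainter probe gave 176 ± 35.7 in Villin-Cre and was not well above background in EP4 cKO, at 63.7 ± 15.6, so it was at least 2.77-fold lower there. It was the 1 probe of the 13 past 2-fold, where of the 30126 probes with a value 8.58% passed downward and 3.99% upward. The 2 Fosb probes thus had the same sign and unequal sizes, and the mean of both put Fosb at -0.93. Fos and Fosb differed by 0.14 ± 0.29 on the log2 scale, within the spot error.

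The 3 Jun genes spread further apart than Fos and Fosb. Jun (chr4:95049036-95052222), the main partner of Fos, gave 56251 ± 5625 in Villin-Cre and 29276 ± 2928 in EP4 cKO. It was 1.92-fold lower in EP4 cKO, with a log2 ratio of -0.94 ± 0.20, just inside the 2-fold threshold, and only 8.70% of all genes had a lower ratio. Junb (chr8:84976909-84978748), which forms AP-1 dimers that activate some AP-1 targets less than Jun does, lay on the other side. Its brighter probe gave 53142 ± 5314 in Villin-Cre and 63927 ± 6393 in EP4 cKO, a log2 ratio of 0.27 ± 0.20, with overlapping error ranges. Its fainter probe gave 509 ± 59.9 and 591 ± 60.8, a log2 ratio of 0.22 ± 0.23. Both Junb probes were thus slightly brighter in EP4 cKO, by less than 2 standard errors of the spot error. Jund (chr8:70697739-70700616), the family member least dependent on a stimulus, had 1 probe for each of 2 accessions. The brighter one gave 112994 ± 11299 in Villin-Cre and 83966 ± 8397 in EP4 cKO, a log2 ratio of -0.43 ± 0.20. The other gave 87955 ± 8796 and 85409 ± 8541, a log2 ratio of -0.04 ± 0.20, so the lower value of Jund rested on 1 of its probes. On the log2 scale, the ratio of Jun minus that of Junb was -1.21 ± 0.29, beyond 2 standard errors of the spot error. Jun minus Jund was -0.51 ± 0.29, and Junb minus Jund was 0.69 ± 0.29.

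**Figure D2:**
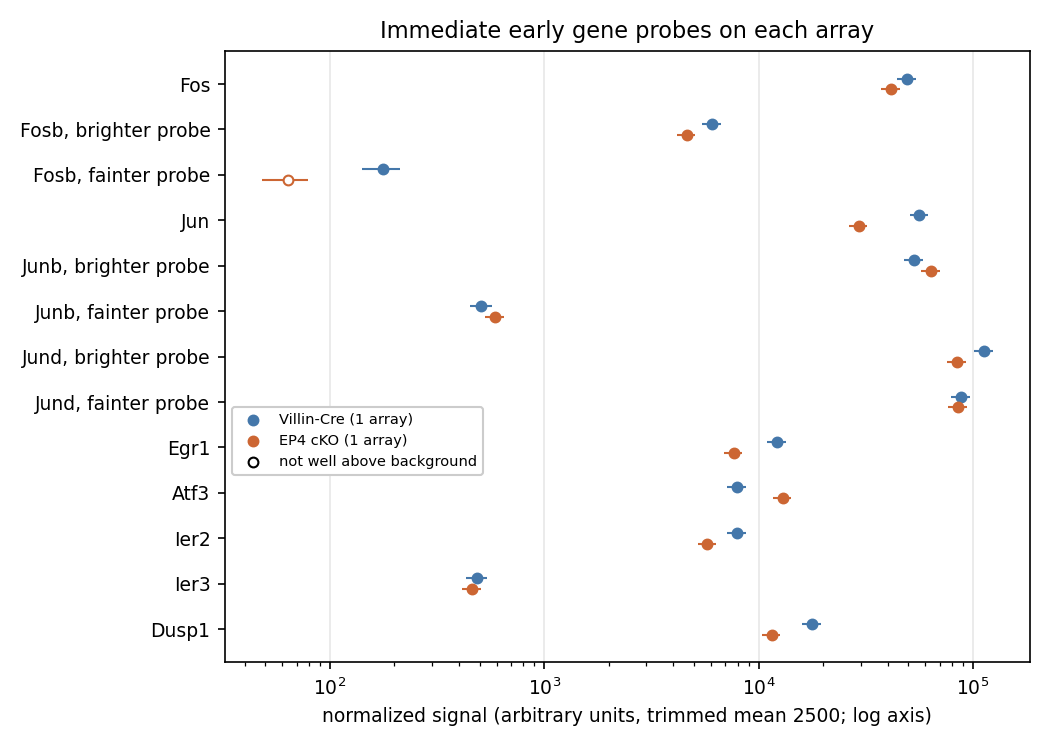
Normalized signal (log axis, arbitrary units) of each of the 13 probes of the 10 immediate early genes on the Villin-Cre and the EP4 cKO array, 1 point per array, with bars for the spot error of the scanner software. For the brightest probes the bars of Jun, Egr1, Dusp1, Ier2, Jund and Fosb do not overlap, with Villin-Cre higher, those of Atf3 do not overlap, with EP4 cKO higher, and those of Fos, Junb and Ier3 overlap. How often the bars of other probes overlap was not counted. The open symbol is the fainter Fosb probe, not well above background in EP4 cKO at 63.7. With scaling to E1A spots the EP4 cKO points move right and all 10 genes are higher there.

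Egr1 and Atf3 stood on opposite sides. Egr1, a zinc finger factor induced through MAP kinases and serum response factor, gave 12203 ± 1221 in Villin-Cre and 7645 ± 765 in EP4 cKO. Its log2 ratio was -0.67 ± 0.20, or 1.60-fold lower, and 15.5% of all genes had a lower one. Atf3 (chr1:191170296-191183333), a stress-induced leucine zipper factor that as a homodimer represses transcription, was the highest of the 10. It gave 7907 ± 791 in Villin-Cre and 12937 ± 1294 in EP4 cKO, and the error ranges did not overlap. Its log2 ratio was 0.71 ± 0.20, or 1.64-fold higher, with 92.1% of all genes lower.

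Among the remaining members, Dusp1 (chr17:26505591-26508472), the nuclear phosphatase that switches off MAP kinases, gave 17684 ± 1769 in Villin-Cre and 11502 ± 1150 in EP4 cKO. The error ranges did not overlap, and the log2 ratio was -0.62 ± 0.20, or 1.54-fold lower. Ier2 (chr8:84661331-84662852), a nuclear protein induced by growth factors, gave 7920 ± 793 and 5773 ± 577, a log2 ratio of -0.46 ± 0.20. It too was lower in EP4 cKO by slightly more than 2 standard errors of the spot error. Ier3 (chr17:35821713-35822911), a stress-induced protein that affects cell survival, gave 487 ± 55.3 and 462 ± 47.7, a log2 ratio of -0.08 ± 0.22. Ier3 stood in the middle of all genes, with 52.0% of them lower, and its sign changed with the scaling, being above 0 in 5 of the 9 alternative settings.

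In order of the log2 ratio from the lowest, the genes were Jun, Egr1, Dusp1, Ier2, Jund, Fosb, Fos, Ier3, Junb and Atf3. Of the 9 pairs of neighbours in that order, 7 differed by less than 1 standard error of their difference and 0 by more than 2. The larger steps were from Ier3 to Junb, 0.34 ± 0.30, and from Junb to Atf3, 0.44 ± 0.29. The first and the last place held under all 9 alternative settings. Jun ranged from -0.94 to -0.79 over the 8 settings other than scaling to E1A, and Atf3 from 0.69 to 0.87. With scaling to E1A, which moved every ratio by 1.05, Jun was at 0.10, Atf3 at 1.76 and Junb at 1.31, so that Atf3 and Junb were then more than 2-fold higher. So were 5840 of the 14669 genes with a value. The count of members below the median of all genes was 7 with that scaling too, and it was 6 where dim probes kept their measured signal. Ratios also varied with brightness over all genes, from a median of -0.24 among genes about as bright as Ier3, to -0.04 among those about as bright as Egr1, Atf3 and Dusp1 and -0.10 among the brightest. Relative to genes of like brightness, Jun was at -0.85, Egr1 at -0.63, Dusp1 at -0.58 and Atf3 at 0.75.

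**Figure D3:**
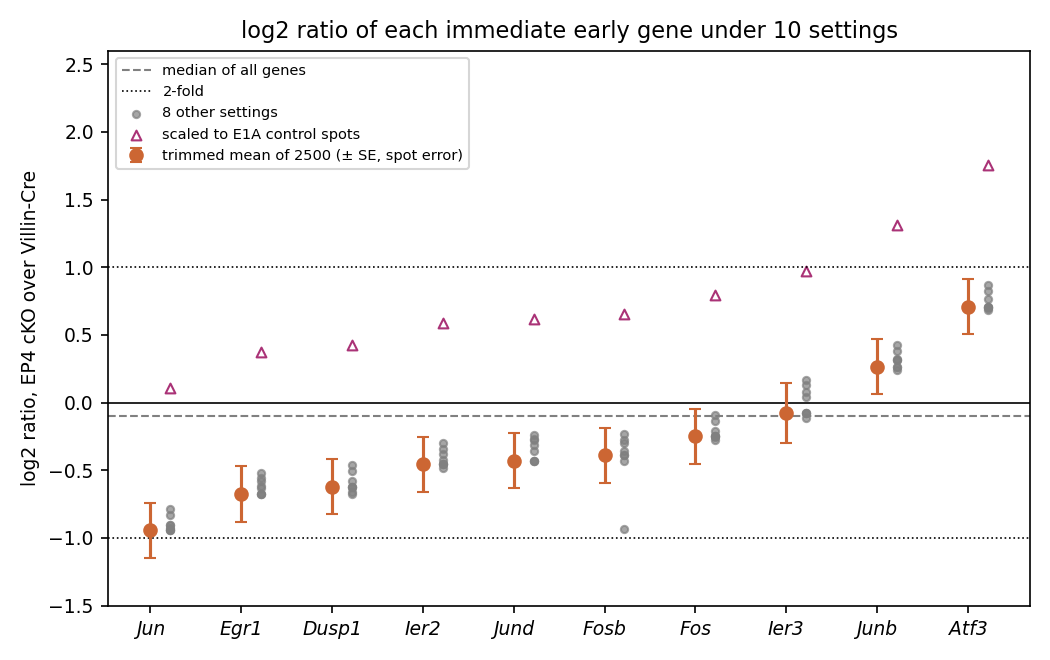
log2 ratio of each immediate early gene, EP4 cKO over Villin-Cre, ordered along the x axis from the lowest. Large points with bars are the trimmed mean scaling with the standard error from spot error, grey points the 8 other settings and triangles the scaling to E1A control spots. Jun is lowest and Atf3 highest in all of them, and the triangles lie above 0 for all 10 genes, so the sign of 8 genes depends on that choice.

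**Figure D4:**
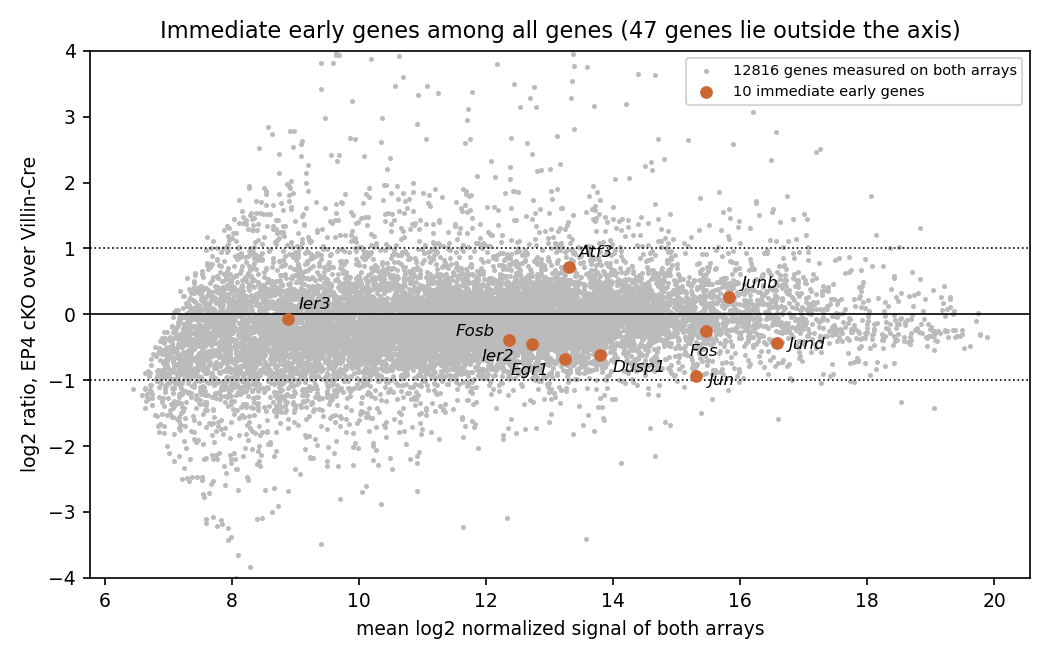
log2 ratio against the mean log2 signal of both arrays for 12816 genes measured on both (grey) and the 10 immediate early genes (orange), with dotted lines at 2-fold and 47 genes outside the axis. All 10 lie between the lines, with Jun closest to the lower line at -0.94 and Atf3 the highest at 0.71. The signs shown hold for the trimmed mean scaling and turn for 8 of the 10 genes with scaling to E1A spots.

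Related genes were read from lists given by name, each against the same 4.86% higher and 7.87% lower among all genes. A gene whose bound gave no fold was counted at 0, and scaling to E1A added 1.05 to every other ratio. With that scaling 5840 of the 14669 genes with a value were more than 2-fold higher and 329 lower. Counts scaled to E1A are to be read against those numbers instead. Among the other AP-1 family genes, 2 of the 8 with a value rose and 0 fell, with a median of 0.12. Jdp2, a Jun partner that represses AP-1 targets, was not well above background in Villin-Cre at 78.3 and gave 466 in EP4 cKO, at least 3.72-fold higher (log2 1.89, and 1.21 with normexp). Batf2, an interferon-induced leucine zipper factor, rose from 10760 to 26625, a log2 ratio of 1.31 ± 0.20. Fosl2 was at -0.17 and Maff at 0.73, both within 2-fold, and Batf3 was dim on both arrays. Both relatives past 2-fold were thus higher in EP4 cKO, as the ratio of Atf3 was. Scaled to E1A, 4 of the 8 passed 2-fold upward and 0 downward.

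Among the other immediate early transcription factors, 0 of 13 rose and 3 fell, with a median of 0.02, which was -0.11 when dim probes kept their own signal. Nr4a1, an orphan nuclear receptor that cAMP induces, fell from 12990 to 5330, a log2 ratio of -1.29 ± 0.20. Its relative Nr4a2 fell from 673 to 246, a log2 ratio of -1.45, and from 548 to 248 by a second probe, -1.14. The remaining relative, Nr4a3, gave 435 and 442, a log2 ratio of 0.02, within 2-fold. Klf2, a factor best known from endothelium and lymphocytes, fell the most of the 13, from 6436 to 2032, a log2 ratio of -1.66 ± 0.20. The endothelial markers Vwf (873 and 914) and Pecam1 (172 and 152) did not pass 2-fold, and the other 4 of the 6 endothelial markers were dim on both arrays. Egr2, a relative of Egr1, was at 0.23, and Egr3 and Egr4 were dim on both arrays. The same list scaled to E1A had a median of 1.07, with 7 of the 13 past 2-fold upward and 0 downward. Klf2, Nr4a1 and Nr4a2 then stood at -0.62, -0.24 and -0.41, within 2-fold, and Nr4a2 was also within it, at -0.91, with normexp background correction and quantile normalization.

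Among the other MAP kinase phosphatases, 2 of 9 rose and 0 fell, with a median of 0.54, while Dusp1 itself was at -0.62. Dusp7, a cytoplasmic member of the family, rose from 1668 to 3540, a log2 ratio of 1.09 ± 0.21. Dusp10, which acts on p38 and JNK, was not well above background in Villin-Cre at 34.5 and gave 296 in EP4 cKO, at least 2.36-fold higher, and it came within 2-fold, at 0.81, with normexp. Dusp2 was at 0.95 and Dusp6 at 0.54, both within 2-fold, but Dusp2 passed it at 1.11 with 75th percentile scaling and at 1.19 with loess. Dusp16 and Dusp8 lay on the same side of 0 as Dusp1, at -0.44 and -0.36. Scaled to E1A, 5 of the 9 passed 2-fold upward and 0 downward.

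Among the other fast-induced genes, which encode effectors rather than transcription factors, 3 of 20 rose and 1 fell, with a median of 0.17. Socs3, an inhibitor of cytokine signalling, rose from 1214 to 3925, a log2 ratio of 1.69 ± 0.21. Plaur, the urokinase receptor, rose from 257 to 695, 1.43 ± 0.27. Per1, a clock gene that cAMP also induces, rose from 5799 to 13896, 1.26 ± 0.20. These 3 rose while Ccn1, a secreted matrix protein, fell from 772 to 224, a log2 ratio of -1.78 ± 0.23, which came within 2-fold, at -0.98 with normexp and at -0.74 with scaling to E1A. In that scaling 12 of the 20 passed 2-fold upward and 0 downward. Nfkbiz, an inducible regulator of NF-kappaB, was at 0.90 and passed 2-fold, at 1.06, with 75th percentile scaling and with loess. Its fainter probe was at 0.0005 in the main scaling. Ptgs2 and Ccn2 were dim on both arrays.

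By the brightest probe of each gene no upstream factor passed 2-fold in either direction. Of the cAMP response element factors, 0 of 13 rose and 0 fell, with a median of -0.23. Pde4a, a phosphodiesterase that breaks down cAMP, was at -0.97, just within 2-fold, Creb1 at -0.50 and Crem at -0.01. Of the 6 serum response factors 0 rose and 0 fell, with a median of -0.44. Srf itself was at 0.26 and its coactivators Mrtfa and Mrtfb were both at -0.57. Of the MAP kinases and the kinases next to them, 0 of 17 rose and 0 fell, with a median of -0.12 that turned to 0.04 with 75th percentile scaling, from Mapk11 at -0.88 to Map2k3 at 0.67. Fainter probes of 3 of these genes did pass, each lower in EP4 cKO and well above background on both arrays. A fainter probe of Rps6ka3, a kinase that phosphorylates CREB, gave 4495 and 203, a log2 ratio of -4.47, where its brightest probe was at -0.17. A second probe of Mapk14, the stress kinase p38 alpha, gave 448 and 92.5, a log2 ratio of -2.28, where the brightest was at -0.45. Of the 5 probes of Pde4d, another phosphodiesterase for cAMP, 2 passed, at -1.40 and -1.22, and the brightest was at -0.75. The probes of these genes thus disagreed on whether 2-fold was passed, and which transcripts each probe reads was not examined. With scaling to E1A, chosen after seeing the data, the medians of these lists turned above 0, to 0.82, 0.60 and 0.93, and 6, 2 and 7 genes were more than 2-fold higher.

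**Figure D5:**
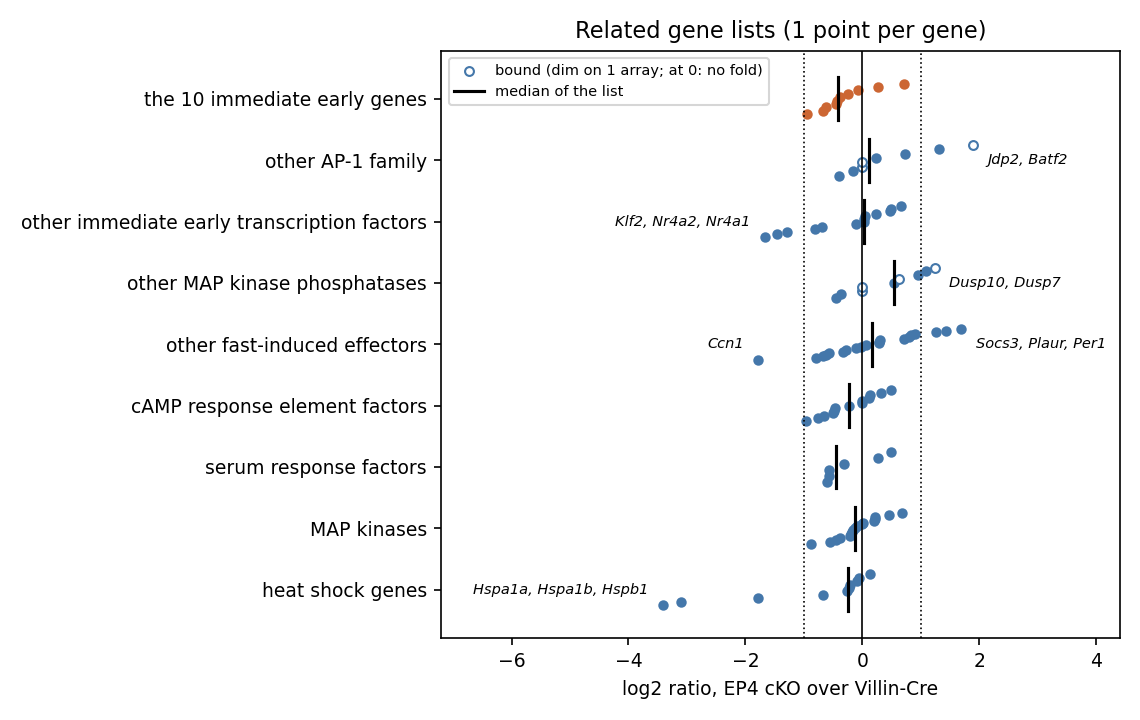
log2 ratio of each gene (EP4 cKO over Villin-Cre, trimmed mean scaling) in the 10 immediate early genes (orange) and 8 related lists (blue), with a black bar at each list's median, dotted lines at 2-fold and genes past 2-fold named beside each list. The 10 genes all lie within 2-fold with a median of -0.41, the other MAP kinase phosphatases have a median of 0.54, and the heat shock genes reach -3.42. Scaling to E1A spots moves every point right by 1.05, except the open symbols at 0.

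Other gene groups differed between the arrays alongside these values. Of the heat shock genes, which heat and handling induce, 0 of 10 rose and 3 fell, with a median of -0.25. Hspa1a fell from 39625 to 3713, a log2 ratio of -3.42 ± 0.20, and Hspa1b fell from 15065 to 1763, -3.10 ± 0.20. The pair is nearly identical in sequence, so the split of signal between them is uncertain. Hspb1 fell from 4162 to 1201, -1.79 ± 0.20, while Hspa8 and Dnajb1 were at -0.20 and -0.26. With scaling to E1A, Hspa1a and Hspa1b were still past 2-fold, at -2.37 and -2.05, and Hspb1 was at -0.75, so that 2 of the 10 were lower and 1 higher.

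Of the fibroblast markers, 6 of the 7 with a value fell, and their summed signal was 15015 in Villin-Cre and 2333 in EP4 cKO, 0.155 times as high, or 0.247 times without Dcn. Dcn fell from 6006 to 110, Col1a2 from 3613 to 111 and Col3a1 by at least 28.0-fold. These sizes shrank with normexp and quantile normalization, to log2 ratios of -4.17 for Dcn against -5.77, -3.33 for Col1a2 against -5.03 and -2.96 for Col3a1 against -4.81, and 5 of the 7 then passed 2-fold. Thy1 was at 0.29, from 1505 to 1836, so most of the EP4 cKO sum of 2333 came from this 1 marker that did not fall. Pdgfra was dim on both arrays. Of the smooth muscle markers, 2 of 6 with a value fell, Cnn1 and Myl9, at -2.73 and -2.15 and with normexp at -1.03 and -1.10, and Myh11 and Lmod1 were dim on both arrays. Their summed signal was 1.48 times as high in EP4 cKO, and most of it came from 1 probe of Acta2, which went from 18006 to 27719, while another Acta2 probe was at -0.58. Without Acta2 the sum was 1.40 times as high. Of the leukocyte markers, 1 of 9 rose, Itgax, from 152 to 505, with its second probe dim on both arrays, and the median was 0. A second probe of Cd4, a helper T cell marker, gave 144 in Villin-Cre and was dim in EP4 cKO at 37.6, at least 2.48-fold lower, where its brightest probe was at 0.18. Their summed signal was 1.29 times as high, but most of it came from Itgam, which went from 49347 to 68597 and whose second probe gave no fold. Without Itgam, left out after the values were seen, the sum was 15881 in Villin-Cre and 15227 in EP4 cKO, 0.959 times as high. Ptprc, the CD45 antigen of all leukocytes, gave 416 and 813, a log2 ratio of 0.97, just within 2-fold, and it passed 2-fold at 1.12 with 75th percentile scaling and at 1.19 with loess, while Csf1r, a macrophage marker, was at -0.79. With E1A scaling 4 leukocyte markers were more than 2-fold higher. Cd79a and Adgre1 were dim on both arrays. Of the neuron and glia markers 5 of 7 were dim on both arrays, and Uchl1 fell by 1.43 on the log2 scale. Summed epithelial markers were 1.29 times as high in EP4 cKO, with a median log2 ratio of 0.10 and Krt20 the 1 marker of 9 past 2-fold, at 1.80. Without Krt20, which went from 146575 to 510711, the sum was 1.11 times as high. The part of the heat shock difference, of the fibroblast markers and of the other cell types in the values of the immediate early genes was not tested.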

How the data were processed

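RNA of 1 Villin-Cre and 1 EP4 cKO colon sample, each combined from 3 pools, was measured on 2 arrays, 1 per genotype, grouped by the genotype in the labels. The authors deposited intensity tables, 1 line per spot, from the scanner software (version 12.0.3.1 of Feature Extraction per the file headers, and 11.5.1.1 per the submitters' processing notes). The processed signal, already background-subtracted by the software, was used. Control spots and outlier spots (147 and 126) were left out, spots of a probe were averaged, and each array was scaled as in the study's methods, to a trimmed mean of 2500 with 2% removed at each end (factors 3.45 and 2.68).

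Probes were named where their accession was in the RefSeq gene table of GRCm38.p6, which matched 32989 of 56593 (58.3%). The coordinates in the array design belong to an older build and were not used. Where a gene had several probes, the one with the highest mean log2 signal stood for it. A probe not well above background on 1 array was given a bound, against the lowest signal well above background there (125 and 57.8) or its own signal if that was higher. The standard error combined the spot errors of both arrays. All members' probes had 1 spot each, and the error model of the software set about 10.0% on a bright one. With 1 array per genotype no p-value was computed, and the number of arrays limits the precision.

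The members and lists were chosen with earlier results of these data known. Genes named beside the members were, in each list, at most 3 past 2-fold in each direction and 2 for their role, and Ptger4. Further genes were named after their values were seen. Alternatives were the 75th percentile, normexp (offset 50) with quantile normalization, loess (span 0.3), a trimmed mean over spots, 3 other treatments of dim or multiple probes, the median spot signal and thresholds of 1.5-fold and 3-fold. Normexp used median spot signals. Scaling to E1A spots and the motif TGACATCA were chosen after seeing the data. Scaling, ratios and bounds were tested on simulated data. A search for leucine zippers in protein sequence was planned and not run. Python 3.11.15, pandas 2.3.3, statsmodels 0.14.6, R 4.3.3 and limma 3.58.1 were used.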

Additional observations from a re-analysis of the deposited data

How the results depend on the processing

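The median of the 10 genes stayed below 0, from -0.43 to -0.25, and no member passed 2-fold, under the 8 settings other than scaling to E1A spots. With that scaling, chosen after seeing the data, the median was 0.64 and 2 genes passed 2-fold, both higher. Relative to the median of all genes, the median of the 10 was at -0.04 with dim probes at their own signal. There the median of all genes was -0.37. In the other alternative settings this difference lay between -0.33 and -0.24. At 1.5-fold, 4 genes passed, 1 higher and 3 lower, where 9.84% of all genes were higher and 18.6% lower. At 3-fold there were 0. Ier3 was at 0.17 with loess. Of all genes past 2-fold, 713 were higher and 1154 lower. The counts were 937 and 906 with the 75th percentile, 615 and 388 with normexp and quantile normalization, 912 and 869 with loess, 876 and 964 with a trimmed mean over spots, 1169 and 7213 with dim probes at their own signal and 5840 and 329 with E1A scaling. The first 4 of these moved the median of all genes by 0.10. For the 14 related and marker lists, the number of genes past 2-fold higher or lower changed in 22 of the 70 comparisons with the 5 settings run on them besides E1A scaling, in 12 of them by more than 1.5 times in total. In 6 of the 70 a median changed sign. With dim probes at their own signal the smooth muscle median went from 0.19 to -0.38 and that of the other immediate early transcription factors from 0.02 to -0.11. The MAP kinase median went from -0.12 to 0.04 with the 75th percentile, and the endothelial one from -0.05 to 0.10, 0.16 and 0.18 with the 75th percentile, normexp and loess. E1A scaling changed the counts of all 14 lists, to 3 higher and 2 lower among smooth muscle markers, 1 higher and 5 lower among fibroblast markers, 6 and 0 among epithelial, 1 and 0 among endothelial and 0 and 0 among neuron and glia markers. It changed the sign of 5 medians, those of the cAMP response element factors, serum response factors, MAP kinases, endothelial markers (0.99) and heat shock genes (0.80). The 12 larger changes of counts were as follows. With dim probes at their own signal the other MAP kinase phosphatases had 4 genes higher, the other immediate early transcription factors 5 lower, smooth muscle 1 higher and 4 lower, neuron and glia 3 lower, endothelial 2 lower and leukocyte markers 1 higher and 1 lower. Without probes dim on either array, the other AP-1 genes and the phosphatases had 1 higher each and fibroblast markers 3 lower. Normexp left 1 phosphatase higher, and the 75th percentile and loess each gave 2 leukocyte markers higher. The cause of these shifts was not tested. No paired analysis was possible because each genotype had 1 array, and no sample could be left out.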
